A study of Mus musculus with 13 samples.

Results

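The enzymes described here take pyruvate into the citrate cycle, run the cycle, and break down amino acids and inositol. They were chosen by name: 37 genes, of which 17 belong to the pyruvate dehydrogenase complex and the cycle and the others to the breakdown of tyrosine, glycine, glutamate, aspartate, branched-chain amino acids, propionate, proline, D-amino acids and inositol. A gene was taken as measured where the array had a probe set annotated to its symbol alone, and the probe set with the highest mean was used where there were several. By this rule 36 members were found among 22180 genes: all 17 of the first set and 19 of the breakdown set. Gstz1, the maleylacetoacetate isomerase of tyrosine breakdown, had no such probe set, and methylmalonyl-CoA mutase (listed as Mut) was found under its present symbol Mmut.

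S1 is where the proximal tubule begins, next to the glomerulus. Transcripts of S1 tubules from male C57BL/6J mice were measured on 13 Affymetrix arrays in 3 groups. The LPS/LPS group (5 arrays) was given 0.25 mg/kg of lipopolysaccharide (LPS, bacterial endotoxin), and 24 h later 5 mg/kg, a schedule known as endotoxin preconditioning. It was studied 24 h after the 5 mg/kg dose. The LPS group (4 arrays) was given 5 mg/kg into the peritoneum alone and studied at 24 h, and the control group (4 arrays) was given saline. All mice were of 1 strain and no allele is named in any group. The labels do not say that each array came from its own animal, so p-values measure the spread between these samples only, which may be technical. In tubule RNA of this kind, fewer cells of a type and less RNA per cell cannot be told apart.

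Pyruvate enters mitochondria and is turned into acetyl-CoA by the pyruvate dehydrogenase complex. The citrate cycle oxidises it and passes electrons to the respiratory chain, and the carbon of most amino acids joins the cycle as pyruvate, acetyl-CoA, oxoglutarate, succinyl-CoA, fumarate or oxaloacetate. Proximal tubule cells are dense in mitochondria. They reclaim nearly all filtered amino acids, release ammonia from glutamine and glutamate to balance acid, make glucose, and begin inositol breakdown with an oxygenase found mainly in the kidney.

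Levels are log2 values after robust multi-array averaging (RMA), a method that merges the probes of a probe set. With no detection calls at hand, 1105 olfactory receptor genes served as a reference for dim signal: 95% of their means lay below a log2 value of 4.77. Of the 36 members, 9 had a mean above it (Mdh2, Hpd, Hgd, Glud1, Got2, Bckdha, Prodh, Dao and Miox), a larger share than the 9.95% of all genes. Differences of the remaining members rest on dim probe sets. In 19 members at least 2 arrays carried the same deposited value to the last decimal, which held for 50.6% of all genes. Correlations between arrays lay between 0.744 and 0.897. Slc34a1, a sodium-phosphate cotransporter of S1 and S2, had values of 8.31 to 10.1 on LPS/LPS arrays, 9.48 to 10.9 on LPS arrays and 11.0 to 11.5 on control arrays. Slc5a2, the sodium-glucose cotransporter that defines these segments, lay under the reference on every array, at 3.72 to 4.71.

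Replicate 3 of the LPS group stood apart from all other arrays for these genes. It was the highest of the 13 arrays for 20 of the 36 members, where 8.9% of all genes had their highest value. Within its own group it was the highest for 24 members (66.7%, against 20.3% of all genes), and it lay more than 1 log2 unit above the mean of the other LPS arrays for 12 members (33.3%, against 3.26% of all genes). Hgd lay 3.29 above that mean, Mdh1 2.83, Suclg1 1.71, Idh2 1.65 and Fah 1.63. Got1 was not high there, at -0.24.

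Other lists were high on the same array. The 20 respiratory chain subunits had a median of 1.56 above their control means on it, and the 17 pyruvate and cycle genes one of 0.83. The 12 markers of the loop of Henle, distal tubule and collecting duct had a median of 0.65 on it. Of these 12, 2 had a mean above the olfactory reference, and their summed log2 level was 48.7 to 52.3 on LPS/LPS arrays, 48.9 to 64.2 on LPS arrays, with 64.2 on replicate 3, and 48.9 to 51.7 on control arrays. Among them Umod (uromodulin, of the thick ascending limb) stood at 8.36, Slc12a1 (the sodium-potassium-chloride cotransporter of that limb) at 6.79, Slc12a3 (the cotransporter of the distal convoluted tubule) at 6.38 and Atp6v1g3 (a proton pump subunit of intercalated cells) at 6.33. Slc12a1 was 3.24 to 4.20 on the other 12 arrays, while Umod was also raised on control replicate 1, at 6.77. Not all of the 12 were raised on LPS replicate 3. Foxi1 (5.29), Slc26a4 (3.97), Pvalb (3.97) and Kcnj1 (4.51) lay within their control ranges on it. The 18 S1 and S2 markers had a median of 0.12 above control means on this array, and the 7 S3 markers one of 0.54. Over the mean of the other LPS arrays, the median excess was 0.53 for S1 and S2 markers, 0.71 for the 12 later markers and 0.54 for the members. Of the S1 and S2 markers 38.9% lay more than 1 log2 unit above that mean, against 41.7% of the 12 later markers and 33.3% of the members. The part of these segments in the members' values was not tested, and results are therefore given with and without the array.

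**Figure D1:**
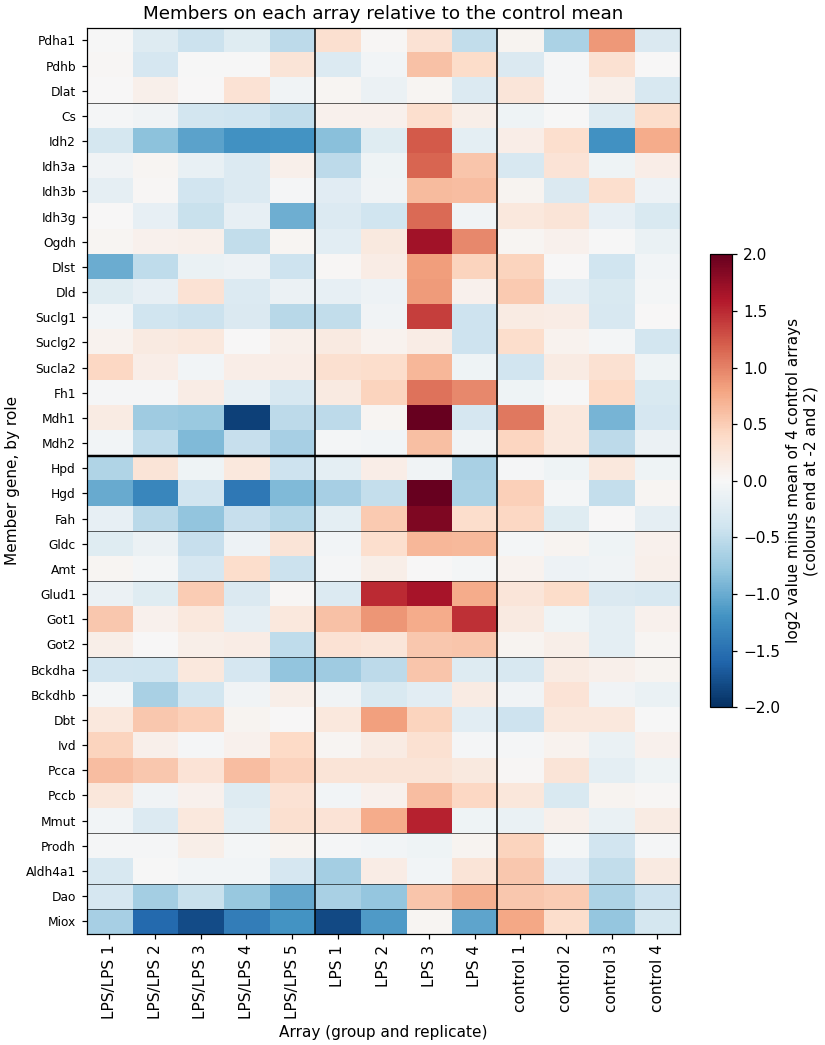
Heat map of the 36 measured members (rows, by role) on the 13 arrays (columns), as the RMA log2 value minus the mean of the 4 control arrays, with colours ending at -2 and 2. Replicate 3 of the LPS group is the highest of all arrays for 20 of 36 members, and Miox is under its control mean on all LPS/LPS arrays.

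**Figure D2:**
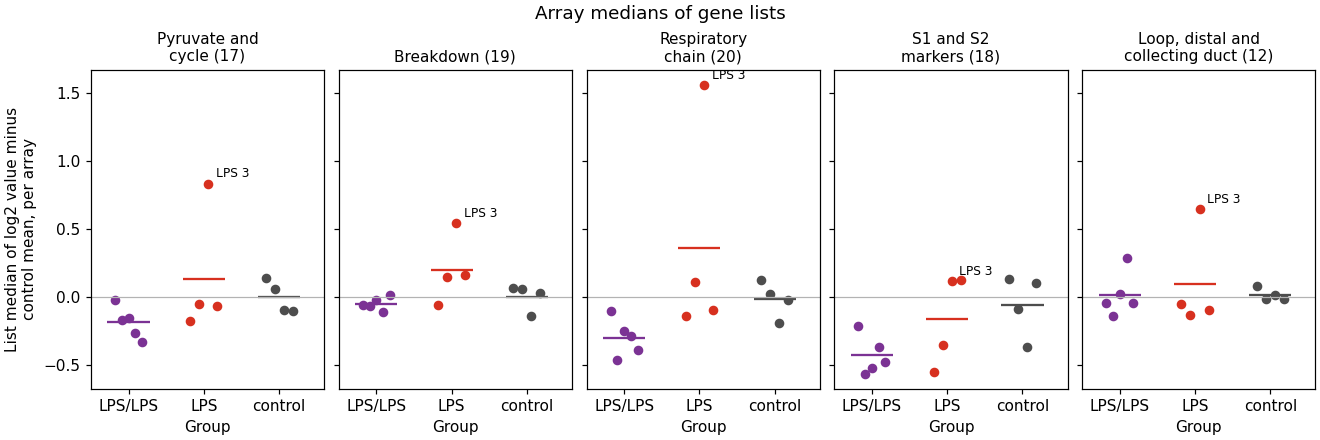
Median over each gene list of the log2 value minus the control mean, 1 point per array, with a line at the group mean. On LPS replicate 3 the median is 0.83 for the pyruvate and cycle genes, 0.54 for the breakdown genes, 1.56 for respiratory chain subunits, 0.12 for S1 and S2 markers and 0.65 for markers of later nephron segments.

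After a single LPS dose, the members that differed most from control were the transaminase Got1 and glutamate dehydrogenase Glud1, higher by 0.92 and 0.90 log2 units, and inositol oxygenase Miox, lower by 0.99. With limma and Benjamini-Hochberg adjustment over all 22180 genes, 0 members passed an adjusted p of 0.05 in LPS against control, where 0 genes of all passed (0%). At an unadjusted p under 0.05, 6 members were higher (Got1, Glud1, Got2, Fh1, Gldc and Mmut), against a background of 3.49% of all genes, and 1 was lower (Miox), against 2.95%. The groups did not overlap for 2 members, Got1 and Got2, both higher in LPS, and for 3.15% of all genes. The median log2 difference was 0.16 over the 36 members, 0.16 over the pyruvate and cycle genes and 0.24 over the breakdown genes, against -0.02 over all genes. It was positive for 26 members. Without LPS replicate 3 the members' median was 0.01, with 18 positive and 18 negative.

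In preconditioned tubules against control, Miox was lower by 1.31 log2 units, Hgd by 1.00 and Idh2 by 0.93, and the propionyl-CoA carboxylase subunit Pcca was higher by 0.50. No adjusted p under 0.05 was reached by a member (0 of 36, with limma), against 0.00902% of all genes. At an unadjusted p under 0.05, 1 member was higher (Pcca, background 2.62%) and 3 were lower (Miox, Idh2 and Mdh2, background 2.07%). Pcca was also the 1 member whose groups did not overlap, against 1.54% of all genes. The median difference was -0.11 over the members, -0.16 over the pyruvate and cycle genes and -0.08 over the breakdown genes, against 0.03 over all genes, and 26 members were negative. The S1 and S2 markers had a median of -0.45 in this comparison, with 17 of 18 negative. Their summed log2 level was 80.8 to 90.4 on LPS/LPS arrays, 81.5 to 108 on LPS arrays, with 108 on replicate 3, and 90.3 to 103 on control arrays. Of these markers, 9 of the 18 had a mean above the olfactory reference. Their part in the members' values was not tested.

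Between preconditioned and singly dosed tubules, most members were lower in LPS/LPS: 30 of 36 differences were negative, with a median of -0.37 (-0.43 over the pyruvate and cycle genes, -0.21 over the breakdown genes) against 0.05 over all genes. Again 0 members passed an adjusted p of 0.05 with limma, against 0.0631% of all genes. At an unadjusted p under 0.05, 13 members were lower, where 4.49% of all genes were: Cs, Idh2, Ogdh, Dlst, Fh1 and Mdh2 of the cycle, and Hgd, Fah, Gldc, Glud1, Got1, Got2 and Mmut of the breakdown set. None was higher at that p (0 of 36, background 4.13%). LPS/LPS arrays lay wholly under LPS arrays for 5 members (Cs, Dlst, Fh1, Got1 and Got2) and wholly above them for Pcca, against 2.4% of all genes with no overlap in either direction. The S1 and S2 markers had a median of -0.48 in this comparison, with 16 of 18 negative and 6 lower at an unadjusted p under 0.05, and 6 of 7 S3 markers were negative, with a median of -0.13. The medians of these marker lists without LPS replicate 3 were -0.27 (14 of 18 negative, 2 lower at that p) and 0.11 (3 of 7 negative), and that of the members was -0.12. Their part in the members' values was not tested. The arrays also differ in the SD of their log2 values. Within the 7 arrays of wider spread the medians were -0.52 for the pyruvate and cycle genes and -0.45 for the breakdown genes. Within the 6 of narrower spread, which hold 1 LPS array, they were -0.046 and 0.025. The wider arrays hold LPS replicates 2, 3 and 4 and the narrower ones LPS replicate 1, so the sets also differ in holding LPS replicate 3. The LPS arrays enter both this comparison and that with control, and the 4 controls enter both comparisons with LPS or LPS/LPS, so the 3 sets of values are not independent. The F-test over the 3 groups called 0 members after adjustment, against 0.0631% of all genes.

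**Figure D3:**
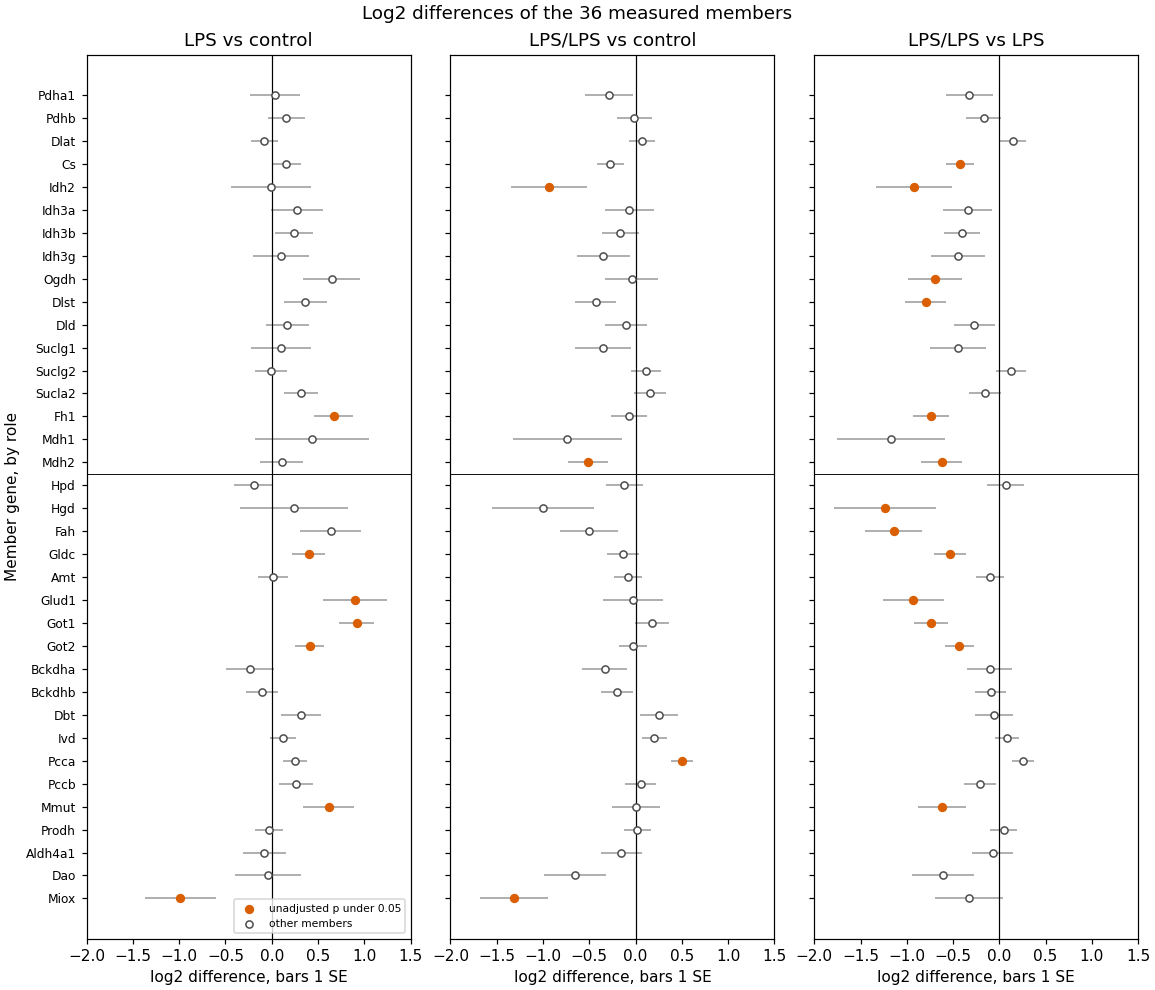
Log2 differences of the 36 measured members in the 3 comparisons, as points with bars of 1 SE from limma; filled points have an unadjusted p under 0.05. In LPS/LPS against LPS, 13 members are filled and all lie to the left of 0; no adjusted p is under 0.05 in any panel.

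No gene of the pyruvate dehydrogenase complex reached an unadjusted p under 0.05 in any comparison. Pdha1, the catalytic alpha subunit, had log2 values of 4.44, 4.19, 4.02, 4.21 and 3.93 on LPS/LPS arrays, 4.78, 4.47, 4.73 and 3.95 on LPS arrays, and 4.50, 3.82, 5.31 and 4.17 on control arrays. All 3 groups overlapped, and the widest spread was among controls, whose replicate 3 was the highest of all. Pdhb, the beta subunit of the same enzyme, had 4.24, 3.87, 4.22, 4.21 and 4.47 on LPS/LPS arrays, 3.95, 4.17, 4.80 and 4.59 on LPS arrays, and 3.92, 4.20, 4.53 and 4.22 on control arrays. Dlat, the acetyltransferase core, had 4.74, 4.83, 4.74, 5.02 and 4.66 on LPS/LPS arrays, 4.77, 4.61, 4.77 and 4.46 on LPS arrays, and 4.98, 4.70, 4.83 and 4.41 on control arrays. Both genes overlapped across all groups. The 9 differences of the 3 genes lay between -0.32 and 0.16 on the log2 scale, and the lowest of their limma adjusted p-values was 0.751.

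Among the cycle enzymes, fumarase, the succinyltransferase Dlst and mitochondrial malate dehydrogenase had the lowest F-test p-values. Fh1, which hydrates fumarate to malate, had 3.53, 3.53, 3.70, 3.40 and 3.22 on LPS/LPS arrays, 3.73, 3.99, 4.64 and 4.51 on LPS arrays, and 3.46, 3.54, 3.95 and 3.25 on control arrays. Every LPS array lay above every LPS/LPS array, and LPS replicates 3 and 4 were the highest of all, while LPS and control overlapped. The log2 difference was 0.67 ± 0.21 (SE; adjusted p = 0.562) in LPS against control and -0.74 ± 0.20 (adjusted p = 0.29) in LPS/LPS against LPS, both from limma. Without LPS replicate 3 they were 0.53 and -0.60.

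Dlst, the core of the oxoglutarate dehydrogenase complex, had 3.73, 4.21, 4.59, 4.62 and 4.30 on LPS/LPS arrays, 4.75, 4.87, 5.56 and 5.17 on LPS arrays, and 5.16, 4.72, 4.33 and 4.67 on control arrays. All 5 LPS/LPS arrays lay under all 4 LPS arrays, and controls overlapped both. Its difference in LPS/LPS against LPS was -0.80 ± 0.22 (SE; limma adjusted p = 0.317), and -0.64 without LPS replicate 3. Mdh2, which turns malate into oxaloacetate in mitochondria, had 5.63, 5.18, 4.80, 5.23 and 5.02 on LPS/LPS arrays, 5.64, 5.63, 6.29 and 5.63 on LPS arrays, and 6.12, 5.90, 5.17 and 5.57 on control arrays. It was the 1 cycle member with a mean above the olfactory reference, and it exceeded that reference on all 13 arrays. LPS/LPS values overlapped both other groups, the LPS group only through replicate 1 of LPS/LPS. The difference was -0.52 ± 0.22 against control (adjusted p = 0.987) and -0.62 ± 0.22 against LPS (adjusted p = 0.449), by limma.

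The other 11 cycle genes are given by their ranges. Citrate synthase (Cs), which joins acetyl-CoA to oxaloacetate, ranged over 4.28 to 4.74 in LPS/LPS, 4.85 to 5.10 in LPS and 4.51 to 5.12 in control. LPS/LPS and LPS did not meet, with a difference of -0.43 ± 0.15 (SE; limma adjusted p = 0.447). Idh2, the mitochondrial isocitrate dehydrogenase that makes NADPH, ranged over 3.73 to 4.58 in LPS/LPS, 4.11 to 6.16 in LPS and 3.73 to 5.68 in control. Control replicate 3 was as low as the lowest LPS/LPS arrays. Its difference was -0.93 ± 0.41 against control and -0.92 ± 0.41 against LPS (adjusted p = 0.987 and 0.552 by limma), and the value against LPS was -0.51 without LPS replicate 3.

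The NAD-linked isocitrate dehydrogenase has a catalytic subunit, Idh3a, and the regulatory partners Idh3b and Idh3g. Idh3a ranged over 2.47 to 2.85 in LPS/LPS, 2.22 to 3.90 in LPS and 2.41 to 3.02 in control, and Idh3b over 4.11 to 4.51, 4.27 to 5.12 and 4.20 to 4.83 in the same groups. Idh3g ranged over 3.75 to 4.73 in LPS/LPS, 4.32 to 5.86 in LPS and 4.42 to 4.98 in control. All 3 were highest on LPS replicate 3 and none had an unadjusted p under 0.05. Ogdh, the decarboxylating subunit that works with Dlst, ranged over 3.53 to 4.12 in LPS/LPS, 3.80 to 5.69 in LPS and 3.89 to 4.11 in control. Its differences were 0.65 ± 0.31 in LPS against control and -0.69 ± 0.29 in LPS/LPS against LPS (SE; limma adjusted p = 0.769 and 0.527), and 0.31 and -0.35 without LPS replicate 3. Dld, the dihydrolipoamide dehydrogenase shared by several of these complexes, ranged over 2.68 to 3.25 in LPS/LPS, 2.79 to 3.81 in LPS and 2.66 to 3.49 in control.

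Succinyl-CoA ligase pairs the alpha subunit Suclg1 with a GTP-forming (Suclg2) or an ATP-forming (Sucla2) beta subunit. Suclg1 ranged over 4.25 to 4.75 in LPS/LPS, 4.32 to 6.20 in LPS and 4.49 to 4.98 in control, with 6.20 on LPS replicate 3 alone. Its difference against LPS was -0.45 with that array and -0.02 without it. Suclg2 ranged over 4.52 to 4.72 in LPS/LPS, 4.09 to 4.69 in LPS and 4.14 to 4.86 in control, and Sucla2 over 2.96 to 3.43, 2.92 to 3.68 and 2.63 to 3.32 in these groups. The beta subunits thus overlapped in every comparison. Mdh1, the cytosolic malate dehydrogenase, was scattered, over 2.18 to 4.20 in LPS/LPS, 3.51 to 6.59 in LPS and 3.11 to 5.10 in control. Its difference against LPS was -1.17 ± 0.59 (SE; limma adjusted p = 0.603), and -0.46 without LPS replicate 3.

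Of the tyrosine enzymes measured, Hgd and Fah were lower in LPS/LPS than in LPS by more than 1 log2 unit with all arrays, and Hpd was not. Hpd, hydroxyphenylpyruvate dioxygenase, had 4.79, 5.64, 5.29, 5.60 and 4.97 on LPS/LPS arrays, 5.19, 5.52, 5.31 and 4.73 on LPS arrays, and 5.36, 5.29, 5.59 and 5.29 on control arrays. Hgd, which opens the ring of homogentisate, had 4.19, 3.88, 4.81, 3.75 and 4.32 on LPS/LPS arrays, 4.53, 4.72, 7.90 and 4.57 on LPS arrays, and 5.66, 5.16, 4.72 and 5.22 on control arrays. The value of 7.90 on LPS replicate 3 was more than 2 units above every other array. LPS/LPS replicate 3 alone reached into the control range.

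Fah, fumarylacetoacetase, which ends the pathway in fumarate and acetoacetate, had 4.55, 4.16, 3.93, 4.24 and 4.13 on LPS/LPS arrays, 4.51, 5.24, 6.57 and 5.07 on LPS arrays, and 5.13, 4.47, 4.71 and 4.53 on control arrays. LPS/LPS replicate 1 was the 1 array of its group that overlapped the others. LPS/LPS differed from LPS by -1.24 ± 0.55 for Hgd (SE; limma adjusted p = 0.557) and -1.14 ± 0.31 for Fah (adjusted p = 0.294). Without LPS replicate 3 they were -0.42 and -0.73. Against control, Hgd was lower in LPS/LPS by 1.00 ± 0.55 and the difference of Fah was -0.51 ± 0.31, both with an adjusted p of 0.987. The estimates stay the same without LPS replicate 3, but the residual spread of Hgd is then smaller, with an SE of 0.22 and adjusted p 0.501. In LPS against control Hgd was 0.24 with that array and -0.58 without it.

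The glycine cleavage system releases carbon dioxide and ammonia from glycine. Gldc, its decarboxylase, had 3.51, 3.65, 3.30, 3.65 and 4.01 on LPS/LPS arrays, 3.70, 4.10, 4.43 and 4.40 on LPS arrays, and 3.72, 3.81, 3.67 and 3.84 on control arrays. LPS replicates 2, 3 and 4 lay above every other array and replicate 1 among the controls. Differences were 0.40 ± 0.18 in LPS against control and -0.53 ± 0.17 in LPS/LPS against LPS (SE; limma adjusted p = 0.763 and 0.403). Amt, its aminomethyltransferase, had 4.32, 4.25, 3.95, 4.64 and 3.86 on LPS/LPS arrays, 4.25, 4.41, 4.29 and 4.25 on LPS arrays, and 4.35, 4.18, 4.21 and 4.39 on control arrays. Its groups overlapped, with differences between -0.10 and 0.02.

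Glutamate dehydrogenase and the aspartate transaminases had the highest median difference of any role in LPS against control, 0.90 on the log2 scale. At an unadjusted p under 0.05, all 3 were higher in LPS than in control (background 3.49%). All 3 were also lower in LPS/LPS than in LPS at that p (background 4.49%). Without LPS replicate 3, Glud1 and Got2 no longer reached that p against control (limma unadjusted p = 0.078 and 0.059), while Got1 did. Got1, the cytosolic aspartate transaminase, had 4.75, 4.29, 4.43, 4.03 and 4.43 on LPS/LPS arrays, 4.80, 5.09, 4.94 and 5.66 on LPS arrays, and 4.39, 4.13, 4.01 and 4.30 on control arrays. All 4 LPS arrays lay above all others, and LPS/LPS and control overlapped. The difference was 0.92 ± 0.19 in LPS against control (SE; limma adjusted p = 0.186), the lowest adjusted p of any member there, and -0.74 ± 0.18 in LPS/LPS against LPS (adjusted p = 0.232). Leaving out any 1 array, the difference against control lay between 0.74 and 1.02, and it was 0.98 without LPS replicate 3. It was 0.89 within the arrays of wider spread and 0.73 within those of narrower spread. LPS/LPS differed from control by 0.18 ± 0.18 (adjusted p = 0.987).

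Glud1, which releases ammonia from glutamate, had 4.61, 4.49, 5.24, 4.44 and 4.75 on LPS/LPS arrays, 4.46, 6.22, 6.39 and 5.48 on LPS arrays, and 4.97, 5.11, 4.44 and 4.42 on control arrays. LPS replicates 2, 3 and 4 exceeded every other array, but replicate 1 lay among the lowest. The differences were 0.90 ± 0.35 in LPS against control (SE; limma adjusted p = 0.698) and -0.93 ± 0.33 in LPS/LPS against LPS (adjusted p = 0.449). This gene turned on single arrays: without LPS replicate 1 the value against LPS was -1.32, with an adjusted p of 0.0411, and without LPS replicate 3 it was -0.68, with one of 0.83. In LPS against control the difference was 0.65 without LPS replicate 3. It was 1.33 within the arrays of wider spread and -0.31 within those of narrower spread, which hold 1 LPS array.

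Got2, the mitochondrial transaminase of the malate-aspartate shuttle, had 5.37, 5.27, 5.36, 5.40 and 4.74 on LPS/LPS arrays, 5.55, 5.50, 5.80 and 5.80 on LPS arrays, and 5.30, 5.37, 5.05 and 5.29 on control arrays. LPS arrays lay above all others, and LPS/LPS replicate 5 was the lowest of all. The difference was 0.41 ± 0.16 in LPS against control and -0.43 ± 0.15 in LPS/LPS against LPS (SE, limma adjusted p = 0.709 and 0.449). Without LPS replicate 3 these were 0.36 and -0.39. In LPS against control it was 0.41 within the arrays of wider spread and 0.33 within those of narrower spread. Another, dimmer probe set of Got2 did not separate the groups in this way, with 3.11 to 3.66 on LPS/LPS arrays, 2.59 to 3.91 on LPS arrays and 3.10 to 3.45 on control arrays.

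**Figure D4:**
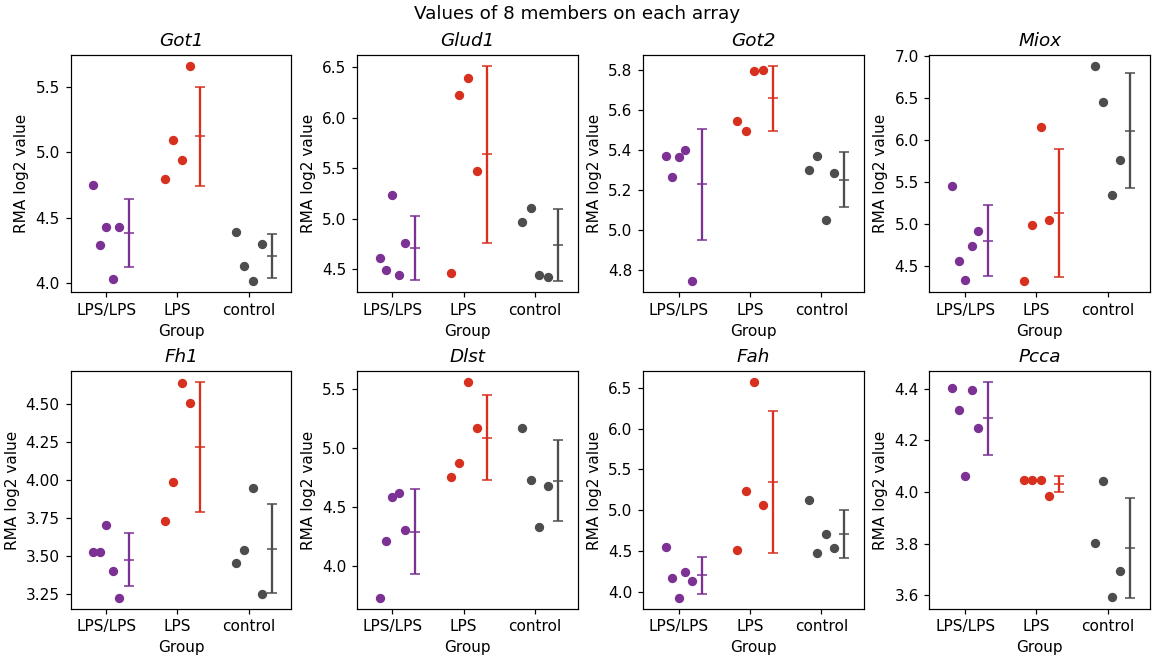
RMA log2 values of 8 members on each array, 1 panel per gene with its own vertical axis; points are arrays, and the bar beside them is the mean ± SD of the group (n = 5, 4 and 4). LPS arrays lie above all others for Got1 and Got2, and LPS/LPS arrays lie above all others for Pcca.

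The stretch of 250 bases before the gene start is printed for these 3 genes, since their differences had the same sign in each comparison with LPS, and for Miox, the member with the largest difference from control. Sequences are from RefSeq on GRCm38.p6 and run 5′ to 3′ on the gene's strand. Got1 lies at chr19:43524606-43524855 on the minus strand, Glud1 at chr14:34310477-34310726 on the plus strand, Got2 at chr8:95888402-95888651 on the minus strand and Miox at chr15:89334223-89334472 on the plus strand. Capitals mark matches on either strand to CCGGAAG (an ETS or GABP motif), GCATGCGC (NRF1) and GTTAAT (found in HNF1 sites).
Got1: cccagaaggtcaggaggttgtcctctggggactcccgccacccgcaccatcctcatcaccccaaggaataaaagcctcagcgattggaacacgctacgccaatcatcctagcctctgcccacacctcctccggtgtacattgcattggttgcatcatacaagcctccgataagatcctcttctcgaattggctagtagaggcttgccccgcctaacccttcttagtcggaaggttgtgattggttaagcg
Glud1: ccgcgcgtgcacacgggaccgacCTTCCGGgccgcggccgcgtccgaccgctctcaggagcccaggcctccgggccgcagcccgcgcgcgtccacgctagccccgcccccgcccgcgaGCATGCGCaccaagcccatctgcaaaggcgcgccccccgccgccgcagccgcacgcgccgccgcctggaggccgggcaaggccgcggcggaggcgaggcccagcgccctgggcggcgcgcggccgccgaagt
Got2: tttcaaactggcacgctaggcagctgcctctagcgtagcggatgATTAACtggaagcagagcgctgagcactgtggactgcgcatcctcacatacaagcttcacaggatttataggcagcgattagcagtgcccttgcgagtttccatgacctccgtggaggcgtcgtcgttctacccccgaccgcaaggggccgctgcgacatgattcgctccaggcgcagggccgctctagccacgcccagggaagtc
Miox: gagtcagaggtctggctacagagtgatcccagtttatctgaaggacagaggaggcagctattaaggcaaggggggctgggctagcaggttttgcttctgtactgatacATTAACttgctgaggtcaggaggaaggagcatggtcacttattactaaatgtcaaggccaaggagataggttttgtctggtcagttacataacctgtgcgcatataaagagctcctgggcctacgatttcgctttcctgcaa
Got1 held none of the motifs searched. Glud1 held GCATGCGC at position -132 and CCGGAAG on the other strand at -227, counted from the gene start, and its window was 82.0% G and C, against a median of 52.4% over all windows. Got2 and Miox held GTTAAT on the other strand, at -206 and -142.

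A promoter entry was found for 33 of the 36 measured members; Idh3a, Dbt and Mmut had none in the table used. GCATGCGC was in the windows of 3 of 33 members (Pccb, Ogdh and Glud1; 9.09%, against 2.56% of 27025 genes), and CCGGAAG in 3 (Glud1, Prodh and Idh3g; 9.09%, against 7.83%). GTTAAT was in 4 (Got2, Bckdhb, Miox and Pdha1; 12.1%, against 7.49%). TCAAGGTCA, bound by oestrogen-related receptors, was in 0 of 33 members and 0.422% of genes, and CAAAGTCCA, bound by HNF4, in 0 and 0.451%. No matches of different motifs overlapped in the members' windows. The GCATGCGC of Ogdh lay in overlapping windows of alternative starts, at -15 and -36. The median share of G and C was 59.2% over the members' windows and 52.4% over all windows, and its part in the motif shares was not tested. Such matches describe letters in a window only.

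The branched-chain keto acid dehydrogenase subunits overlapped between groups. Of the propionate enzymes, Pcca had its highest values in LPS/LPS and Mmut in LPS. Pcca, the biotin-carrying subunit of propionyl-CoA carboxylase, had 4.40, 4.32, 4.06, 4.40 and 4.25 on LPS/LPS arrays, 4.05, 4.05, 4.05 and 3.99 on LPS arrays, and 3.80, 4.04, 3.59 and 3.70 on control arrays. All 5 LPS/LPS arrays were above all others, with LPS/LPS replicate 3 nearest to the LPS arrays. In the LPS group 3 arrays carried 1 deposited value, so that the group's SD of 0.03 is not a usual replicate spread. The difference against control was 0.50 ± 0.12 (SE; limma adjusted p = 0.866), and 0.44 to 0.59 with any 1 array left out. Pccb, the partner subunit, ranged over 3.74 to 4.29 in LPS/LPS, 3.95 to 4.62 in LPS and 3.69 to 4.22 in control, and differed from control by 0.05 ± 0.17 in LPS/LPS (adjusted p = 0.987).

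Mmut, which turns methylmalonyl-CoA into succinyl-CoA, had 3.65, 3.43, 3.91, 3.51 and 4.03 on LPS/LPS arrays, 3.97, 4.44, 5.25 and 3.62 on LPS arrays, and 3.57, 3.81, 3.56 and 3.87 on control arrays. LPS replicates 2 and 3 were the highest and replicate 4 lay among the controls. Its difference was 0.62 ± 0.27 in LPS against control and -0.62 ± 0.26 in LPS/LPS against LPS (SE; limma adjusted p = 0.754 and 0.529), and 0.31 and -0.31 without LPS replicate 3. Dbt, the acyltransferase core of the branched-chain complex, had 3.50, 3.82, 3.77, 3.34 and 3.30 on LPS/LPS arrays, 3.50, 4.11, 3.74 and 3.08 on LPS arrays, and 2.88, 3.50, 3.50 and 3.28 on control arrays. These values overlapped in full. Bckdha, the alpha subunit of its decarboxylase, ranged over 4.53 to 5.54 in LPS/LPS, 4.61 to 5.87 in LPS and 4.99 to 5.49 in control, and Bckdhb, the beta subunit, over 3.44 to 4.22, 3.79 to 4.26 and 3.96 to 4.38. Ivd, the isovaleryl-CoA dehydrogenase of leucine breakdown, ranged over 4.17 to 4.64 in LPS/LPS, 4.17 to 4.49 in LPS and 4.06 to 4.28 in control. None of these 4 had an unadjusted p under 0.05 with all arrays.

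The proline enzymes differed less between groups than between arrays. Prodh, which starts proline breakdown, had 5.22, 5.22, 5.36, 5.21 and 5.31 on LPS/LPS arrays, 5.22, 5.19, 5.15 and 5.30 on LPS arrays, and 5.69, 5.21, 4.86 and 5.22 on control arrays. It was above the olfactory reference on all 13 arrays, and 4 arrays shared 1 deposited value. Aldh4a1, which completes the path to glutamate, had 3.75, 4.06, 4.03, 4.03 and 3.74 on LPS/LPS arrays, 3.39, 4.22, 4.03 and 4.33 on LPS arrays, and 4.62, 3.85, 3.58 and 4.25 on control arrays. Differences of the pair lay between -0.15 and 0.05, with limma adjusted p-values of 0.951 or more.

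Dao, the peroxisomal D-amino acid oxidase, had 4.98, 4.65, 4.88, 4.57 and 4.30 on LPS/LPS arrays, 4.67, 4.56, 5.88 and 6.03 on LPS arrays, and 5.86, 5.83, 4.70 and 4.91 on control arrays. LPS and control arrays each fell into a higher and a lower pair, and LPS/LPS arrays lay with the lower ones. Its difference was -0.65 ± 0.33 against control and -0.61 ± 0.33 against LPS (SE; limma adjusted p = 0.987 and 0.642). The value against LPS was -0.36 without LPS replicate 4, -0.41 without LPS replicate 3 and 0.03 within the arrays of narrower spread.

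Miox, which opens the inositol ring to glucuronate, was the member with the largest difference from control. It had 5.45, 4.56, 4.33, 4.74 and 4.92 on LPS/LPS arrays, 4.31, 4.98, 6.15 and 5.05 on LPS arrays, and 6.89, 6.46, 5.34 and 5.76 on control arrays. Control replicate 3, the lowest control, was below LPS/LPS replicate 1 and LPS replicate 3, and all other LPS/LPS and LPS arrays lay under every control. The difference was -1.31 ± 0.37 in LPS/LPS against control (SE; limma adjusted p = 0.921) and -0.99 ± 0.39 in LPS against control (adjusted p = 0.708). Without LPS replicate 3 the value for LPS was -1.33 ± 0.35 (adjusted p = 0.468). With any 1 array left out, LPS/LPS against control lay between -1.57 and -1.06. LPS/LPS differed from LPS by -0.33 ± 0.37, and by 0.02 without that array.

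Over the group means, LPS was the highest and LPS/LPS the lowest for 19 of 36 members, an order found in 13.9% of all genes. Control was the highest and LPS/LPS the lowest for 6 (Idh2, Bckdha, Bckdhb, Aldh4a1, Dao and Miox; 11.1% of all genes). LPS was the highest and control the lowest for 5 (Sucla2, Got1, Dbt, Pccb and Mmut; 15.7% of all genes). LPS/LPS was the highest group for 5 of 36 members, Dlat, Suclg2, Ivd, Pcca and Prodh, while 40.1% of all genes had their highest mean there. Hpd was highest in control and lowest in LPS, as were 19.2% of all genes. These counts rest on means that include LPS replicate 3.

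Leaving out LPS replicate 3 brought both medians near 0 in LPS against control. In LPS against control the median of the pyruvate and cycle genes was -0.05, with the sign of 7 of 17 turned, and that of the breakdown genes was 0.06, with 1 of 19 turned. At an unadjusted p under 0.05, 2 members were then higher, Fh1 and Got1 (background 3.38%), and 3 lower, Miox, Hgd and Bckdha (background 2.43%). In LPS/LPS against control the values are the same by construction and the spread is not. There 6 members were lower at that p, Idh2, Suclg1, Mdh2, Hgd, Fah and Miox (background 2.35%), and 1 was higher, Pcca (626 of 22180 genes). The members' median in LPS/LPS against LPS was -0.12, with 28 of 36 negative, and 7 were lower at that p, Cs, Dlst, Fh1, Fah, Gldc, Got1 and Got2 (background 3.49%). In that comparison 0 members were higher at that p (593 of 22180 genes). No member passed after adjustment (0 in each comparison with limma).

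**Figure D5:**
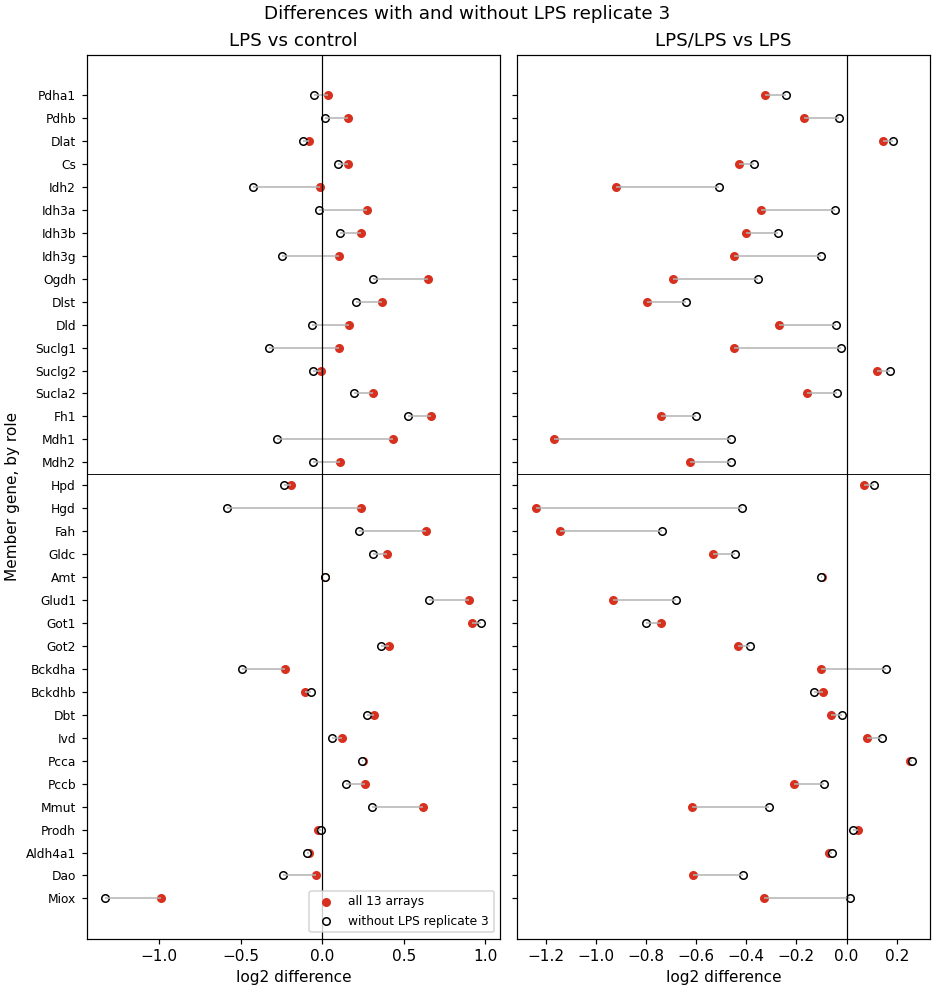
Log2 differences of the 36 members in LPS against control and in LPS/LPS against LPS, with all 13 arrays (filled) and without LPS replicate 3 (open), joined by a line. Hgd and Mdh1 shift most, and Got1 little: its difference from control is 0.92 with the array and 0.98 without it.

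Other genes of the same pathways were taken from lists of names. Of 30 further genes of pyruvate use and the cycle, 0 passed adjustment with limma. At an unadjusted p under 0.05, 4 were higher and 0 lower in LPS against control, where 3.49% and 2.95% of all genes were. In LPS/LPS against control 0 were higher and 2 lower (background 2.62% and 2.07%), and in LPS/LPS against LPS 1 was higher and 9 lower (background 4.13% and 4.49%). With LPS replicate 3 left out, 3 were higher in LPS than in control (background 3.38%) and 5 lower in LPS/LPS than in LPS (background 3.49%). Pdk4, a kinase that switches off pyruvate dehydrogenase, had 3.88, 4.73, 4.29, 4.03 and 4.28 on LPS/LPS arrays, 5.31, 7.11, 5.00 and 6.17 on LPS arrays, and 4.16, 4.20, 3.76 and 3.47 on control arrays. Every LPS array was above every other array. The differences were 2.00 ± 0.37 in LPS against control (SE; limma adjusted p = 0.0995) and -1.66 ± 0.35 in LPS/LPS against LPS (adjusted p = 0.122), and 2.30 and -1.96 without LPS replicate 3 (adjusted p = 0.0547 and 0.0763). Pck1, which makes phosphoenolpyruvate for glucose synthesis, was higher in LPS than in control by 1.25 ± 0.38 (adjusted p = 0.551). Sdhc, a membrane anchor of succinate dehydrogenase, was lower in LPS/LPS than in control (-1.11 ± 0.49, adjusted p = 0.987), with 1 control array at 6.69. Me2, the mitochondrial malic enzyme, differed from control by -0.32 ± 0.14 in LPS/LPS (adjusted p = 0.987), and Sdhaf2, which helps attach flavin to succinate dehydrogenase, differed from LPS by -0.40 ± 0.13 (adjusted p = 0.419).

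Of 60 further genes of amino acid breakdown, 0 passed adjustment with limma. At an unadjusted p under 0.05, 2 were higher and 0 lower in LPS against control, which is near the background of 3.49% for higher genes. In LPS/LPS against control 1 was higher and 6 were lower (background 2.62% and 2.07%), and in LPS/LPS against LPS 0 were higher and 6 lower (background 4.13% and 4.49%). Leaving out LPS replicate 3, 0 were higher and 2 lower in LPS against control (background 3.38% and 2.43%), 7 lower in LPS/LPS than in control (background 2.35%) and 3 lower in LPS/LPS than in LPS (background 3.49%). Glul, glutamine synthetase, had 5.53, 5.26, 5.10, 4.29 and 4.76 on LPS/LPS arrays, 6.23, 6.86, 6.97 and 5.95 on LPS arrays, and 6.36, 5.63, 5.35 and 5.63 on control arrays. LPS/LPS lay wholly under LPS, by -1.52 ± 0.28 (SE; limma adjusted p = 0.0868), and LPS against control was 0.76 ± 0.30 (adjusted p = 0.708). These values were -1.36 (adjusted p = 0.238) and 0.61 (adjusted p = 0.851) without LPS replicate 3. Oat, the ornithine aminotransferase, was higher in LPS than in control by 0.60 ± 0.24 (adjusted p = 0.714). In LPS/LPS against control, Gcsh, the lipoyl carrier of glycine cleavage, was higher by 0.44 ± 0.14 and Grhpr, the glyoxylate and hydroxypyruvate reductase, lower (-1.01 ± 0.33), each with an adjusted p of 0.987. Aldh6a1, of valine breakdown, was lower in LPS/LPS than in LPS (-0.84 ± 0.21, adjusted p = 0.234).

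Of 7 further inositol genes, 1 was lower in LPS/LPS than in LPS at an unadjusted p under 0.05 (background 4.49%). This was Xylb, xylulokinase (-0.84 ± 0.37 SE, limma adjusted p = 0.545), and no other difference of this list had an unadjusted p under 0.05. The value for Xylb was -0.74 without LPS replicate 3, and 0 genes of the list reached that p in any comparison. Of 20 respiratory chain subunits, 0 were higher or lower at that p in LPS against control (background 3.49% and 2.95%). In LPS/LPS against control 1 was lower at that p (background 2.07%), and in LPS/LPS against LPS 8 were lower (background 4.49%). The list medians were 0.21 in LPS against control, -0.32 in LPS/LPS against control and -0.66 in LPS/LPS against LPS. On LPS replicate 3, 14 of the 20 lay more than 1 log2 unit above the mean of the other LPS arrays. Without it the medians were 0.01, -0.32 and -0.29 in the same order, 4 were lower in LPS/LPS than in control (background 2.35%) and 2 lower in LPS/LPS than in LPS (background 3.49%). Cycs, cytochrome c, had 5.63, 3.48, 3.86, 4.08 and 6.06 on LPS/LPS arrays, 5.55, 7.04, 8.05 and 6.16 on LPS arrays, and 7.14, 3.91, 4.99 and 4.75 on control arrays. Its arrays spread over several units within each group, and the difference against LPS was -2.08 ± 0.69 (adjusted p = 0.421), and -1.63 ± 0.71 without LPS replicate 3 (adjusted p = 0.794). Atp5b, the catalytic subunit of ATP synthase, was lower in LPS/LPS than in control (-1.21 ± 0.46, adjusted p = 0.987).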

How the data were processed

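Expression was measured on 13 Affymetrix whole-transcript arrays of S1 tubule RNA. The authors deposited log2 values for 41345 probe sets; RMA and Partek 6.6 are named in the submitters' processing notes, and the background step, the normalization between arrays and the annotation used were not stated in what was used here. RMA values keep some background signal, which compresses differences of dim genes, and its median-based summary can give several arrays 1 value. From the platform annotation, 23521 probe sets had 1 symbol, 1814 several and 16010 none; only the first kind was used, the brightest per gene, which gave 22180 genes. For Mmut the symbol was updated through RefSeq.

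All arrays entered 1 limma fit (limma 3.58.1, R 4.3.3; lmFit, eBayes) with a mean per group, with Benjamini-Hochberg adjustment across all genes and a threshold of 0.05. SE is limma's moderated standard error. Groups came from the labels. The fit was tested on simulated data. Values on every array are given for up to 3 members per role, those with the lowest F-test p, and values of further pathway genes for those with the lowest p per list and comparison. The members, gene lists and alternatives were chosen with earlier results of these data known, and Cs, Idh2, Ogdh and the array left out were singled out after their values were seen.

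Replicate numbers recur in the 3 groups. Deviations of same-numbered arrays from their group means correlated between -0.35 and 0.22 over 12 pairs. The best match had the same number for 2 of 13 arrays. With so few arrays per group, these values cannot decide whether equal numbers mark paired samples. The labels were not read as pairs, and no block was used in the values reported. The number of arrays limits the precision.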

Additional observations from a re-analysis of the deposited data

Results flagged for a closer look

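In 114 sets of 4 or 5 arrays, a single array whose gap to its nearest neighbour took up nearly all of the group's range was looked for with Dixon's limit, which chance passes in about 1 of 20 sets. Over all genes such an array was found in 9.57% of genes in LPS/LPS, 9.72% in LPS and 9.81% in control. LPS replicate 3 was the high array in 1.41% of all genes.

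LPS replicate 3 stood out as high for Cs at 5.10, Mdh2 at 6.29 and Hgd at 7.90, and for the median of the pyruvate and cycle genes, which was 0.83 above the control means. The same array had the highest summed level of markers of the loop of Henle, distal tubule and collecting duct (64.2). It also had the highest sum for S1 and S2 (108), S3 (35.8), endothelial (30.2) and fibroblast and mural markers (39.0). It did not for podocyte, macrophage and monocyte, neutrophil or lymphocyte markers. The part of these cell types in the values of LPS replicate 3 was not tested. Mdh2 was nearly constant on the other LPS arrays, at 5.63, 5.63 and 5.64, so that its difference between LPS/LPS and LPS is -0.46 without replicate 3. Ogdh was low on LPS/LPS replicate 4, at 3.53, and Got2 on LPS/LPS replicate 5, at 4.74. Bckdhb was high on control replicate 2, at 4.38. Pcca was low on LPS replicate 4, at 3.99, where the other 3 LPS arrays carried 1 deposited value.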

How the results depend on the processing

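No member passed the adjusted threshold in any comparison or in the F-test under the alternatives run, with 1 exception: without LPS replicate 1, the count in LPS/LPS against LPS was 1 (Glud1, -1.32, adjusted p = 0.0411). Over all genes the counts moved more: in LPS/LPS against LPS 14 genes passed, 96 without LPS replicate 1, 41 with array weights and 0 with no moderation, and in LPS against control 0 passed, 24 without LPS replicate 1 and 30 with array weights. With the replicate block, 0 members passed, and 3, 0 and 4 genes in LPS against control, LPS/LPS against control and LPS/LPS against LPS. The median of the pyruvate and cycle genes in LPS/LPS against LPS was -0.046 within the narrow arrays (those with a low SD of log2 values), which hold 1 LPS array, and -0.24 to -0.57 with 1 array left out. Against control, the value for LPS/LPS was -0.52 where only genes above the olfactory reference were kept, which leaves Mdh2 alone. The median of the breakdown genes in LPS against control was -0.039 within the narrow arrays, -0.034 with only genes above the reference, and 0.063 to 0.24 with 1 array left out; the lowest were 0.063 without LPS replicate 3 and 0.08 without control replicate 3. Against LPS, the value for LPS/LPS was -0.45 within the wide arrays, which hold LPS replicate 3, and 0.025 within the narrow ones, which do not. It was -0.38 with only genes above the reference. The median of the cycle genes in LPS against control ran from -0.05 (without LPS replicate 3) to 0.30. The causes of these shifts were not tested. Leaving out control replicate 1 together with LPS replicate 3, an alternative added after seeing the data, gave medians of 0.07 and 0.14 for the cycle and breakdown genes in LPS against control. Most members lie under the olfactory reference, and an adjusted p above the threshold does not show that groups are alike.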
